A study of Rattus norvegicus with 13 samples.

Results

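The miR-143 and miR-145 cluster is a pair of neighbouring microRNA (miRNA) genes whose RNA hairpins are each cut into 2 mature strands. Its members were taken by name from the array design, as rno-miR-143, rno-miR-143*, rno-miR-145 and rno-miR-145* (written without the species prefix below), where the asterisk marks the strand that is usually the less abundant. They are 4 of the 677 rat miRNAs on the array, and the rule that picks them uses names alone. Both miRNAs were measured in fat of female Sprague Dawley rats aged 14 weeks, on Agilent 1-colour arrays. The Control group held 7 daughters of fathers fed standard chow with 9% fat. The HFD group held 6 daughters of fathers fed high-fat pellets with 43% fat, and the fathers of both groups were mated at 15 weeks with females on chow. The daughters of both groups were themselves weaned onto standard chow, so the groups differ, as labelled, in the father's diet. Arrays are named here by group and by the animal number in the sample title. The sources used here name no father, litter or fat depot, so sisters, if any were included, could not be modelled, and p-values cover only the spread among these 13 animals.

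A miRNA is a short RNA that guides a silencing complex to messenger RNAs, mostly through pairing of its seed, the stretch just inside its 5′ end. The miR-143 and miR-145 hairpins lie in the long noncoding RNA gene Carmn and can be made from a shared primary transcript. The cluster is best known for its high level in smooth muscle of vessels and other hollow organs, where it helps to maintain the contractile state, and it is also found in pericytes and fibroblasts. In fat, miR-143 has been described as promoting adipocyte differentiation and miR-145 as restraining it, and miR-143 has been tied to impaired insulin signalling in the liver of obese mice. Fat tissue holds adipocytes, vessel walls and stromal cells, so a tissue level does not say which cells carry the miRNA. In a bulk sample, a change in the number of cells of a type and a change in the RNA per cell cannot be told apart.

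The 4 mature strands are printed because the report compares the arms of each hairpin, and all 4 matched an entry in the RefSeq tables (build GRCr8). Capitals mark the seed, bases 2 to 8 from the 5′ end.

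miR-143 (miR-143-3p, chr18:57371373-57371394, minus strand): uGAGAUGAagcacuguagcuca

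miR-143* (miR-143-5p, chr18:57371408-57371428, minus strand): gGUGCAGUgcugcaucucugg

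miR-145 (miR-145-5p, chr18:57370033-57370055, minus strand): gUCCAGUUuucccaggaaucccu

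miR-145* (miR-145-3p, chr18:57369997-57370017, minus strand): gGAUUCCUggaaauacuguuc

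No seed was shared among the 4 strands. Each of the 4 seeds was found in 1 of the 693 mature rat miRNAs of the RefSeq table, its own strand. By their RefSeq names, miR-143 lies on the 3′ arm of its hairpin and miR-145 on the 5′ arm, so the strands without an asterisk come from opposite sides of their hairpins. In the hairpins below, capitals mark both mature strands.

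Mir143 (chr18:57371349-57371453, minus strand): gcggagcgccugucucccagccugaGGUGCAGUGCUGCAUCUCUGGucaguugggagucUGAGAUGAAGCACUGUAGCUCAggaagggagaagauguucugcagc

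Mir145 (chr18:57369983-57370070, minus strand): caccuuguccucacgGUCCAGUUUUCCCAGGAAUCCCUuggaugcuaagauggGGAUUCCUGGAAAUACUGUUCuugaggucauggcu

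The hairpins are 105 and 88 bases long and lie 1278 bases apart on the same strand of chromosome 18, both inside Carmn. Each of the 4 strands was read by probes of its own, with 2 probes per strand and 10 spots per probe.

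A level below is the log2 of a miRNA's probe intensity over the array's 75th percentile, taken over the 260 probes detected on all 13 arrays. A level is comparable between arrays for 1 miRNA, and not between miRNAs. The lowest level that could be read was -5.67, called the floor, below which no order can be read. On a given array, detection required 1 or more probes of the miRNA to exceed the background clearly in 0.5 or more of their spots. Of the 677 miRNAs, 206 were detected on at least 1 array, and the 176 detected on at least 6 arrays were tested. Among the 4 members, miR-143, miR-145 and miR-143* were tested and miR-145* was not. The 13 arrays had between 155 and 196 detected miRNAs, a 75th percentile between 1550 and 2540 intensity units, and no saturated spot. All 7 miRNAs of a list of fat markers passed the detection filter.

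An array of the Control group, Control 658, had by far the highest level of miR-143 and miR-145. It had the highest level of 26 of the 176 tested miRNAs and the lowest of 29, and 8 miRNAs were over 2-fold above the median of the other 12 arrays while 5 were over 2-fold below. Among the other 12 arrays, the number of highest levels reached 28 (Control 664), the number of lowest levels 24 (Control 622), the number over 2-fold above 6 (HFD 629) and the number over 2-fold below 3 (Control 627). A miRNA whose lowest level was shared by several arrays, as at the floor, was counted only for the first of them, Control arrays first by number. Such ties can raise the number of lowest levels of early arrays such as Control 622. By these counts Control 658 came first in the number of lowest levels and in both 2-fold counts, and not in the number of highest levels. It is singled out here for its levels of the members. In depth it was ordinary, with 176 miRNAs detected and 22.7% of spots above background, where the other arrays ran from 20% to 25.1%. On 3 other arrays, Control 662, Control 664 and HFD 629, the striated muscle miRNA miR-133b had levels of 2.36, 1.67 and 2.61, against -5.37 to -1.59 on the remaining 10. The main results below that rest on Control 658 are given with and without it.

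miR-143 was bright on every array. In the Control group its levels were 1.36 (Control 622), 1.34 (627), 1.66 (631), 1.77 (656), 3.74 (658), 1.41 (662) and 1.10 (664). In the HFD group they were 1.42 (HFD 619), 1.39 (620), 1.36 (624), 1.44 (629), 1.52 (660) and 1.38 (663). The HFD animals sat close together inside the range of the controls, while Control 658 was above all other 12 arrays and Control 664 below them. The medians of the groups were 1.41 and 1.40.

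miR-145, the other abundant strand, ordered the arrays much the same way. Its Control levels were -2.52 (622), -2.48 (627), -2.09 (631), -1.96 (656), 0.093 (658), -2.40 (662) and -2.66 (664). Its HFD levels were -2.12 (619), -2.20 (620), -2.27 (624), -2.42 (629), -2.22 (660) and -2.46 (663). Control 658 was again the highest, Control 656 and 631 came next, and Control 664 was the lowest. The groups overlapped, and here the HFD median, -2.24, was above the Control median, -2.40.

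The passenger strands, those on the opposite arm, were near the limit of the arrays. For miR-143*, only 1 of the 2 probes rose above background. That probe had an intensity of 195 on Control 658 and between 21.6 and 55.3 on the other 12 arrays, with a median of 35.8. The miR-143* level left the floor in Control 631 (-5.50), Control 656 (-5.47), Control 658 (-4.51), HFD 620 (-5.57) and HFD 660 (-5.66), and it was at -5.67 on the other 8 arrays. The 3 highest arrays for miR-143* were thus Control 658, 656 and 631, the 3 highest for miR-143 as well. By the detection rule, miR-143* was detected on 7 arrays, 3 Control and 4 HFD.

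miR-145* was well above background only on Control 658. Its brighter probe read 59.4 there and 4.64 to 14.5 on the other 12 arrays. The second probe read 25.6 there and 2 to 9.96 elsewhere. The authors' extraction software listed a total gene signal of 53 for miR-145* on Control 658 and the placeholder 0.1, its value for a miRNA not detected, on the other 12. The brighter probe was measured on 1 of 7 Control arrays and 0 of 6 HFD arrays. Its Control mean was -5.58, with every Control array but Control 658 at the floor. The size of a difference between groups therefore cannot be read. Without Control 658 the Control mean of the probe was -5.67. The HFD mean of the probe was at the floor, -5.67, and no test was made.

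**Figure D1:**
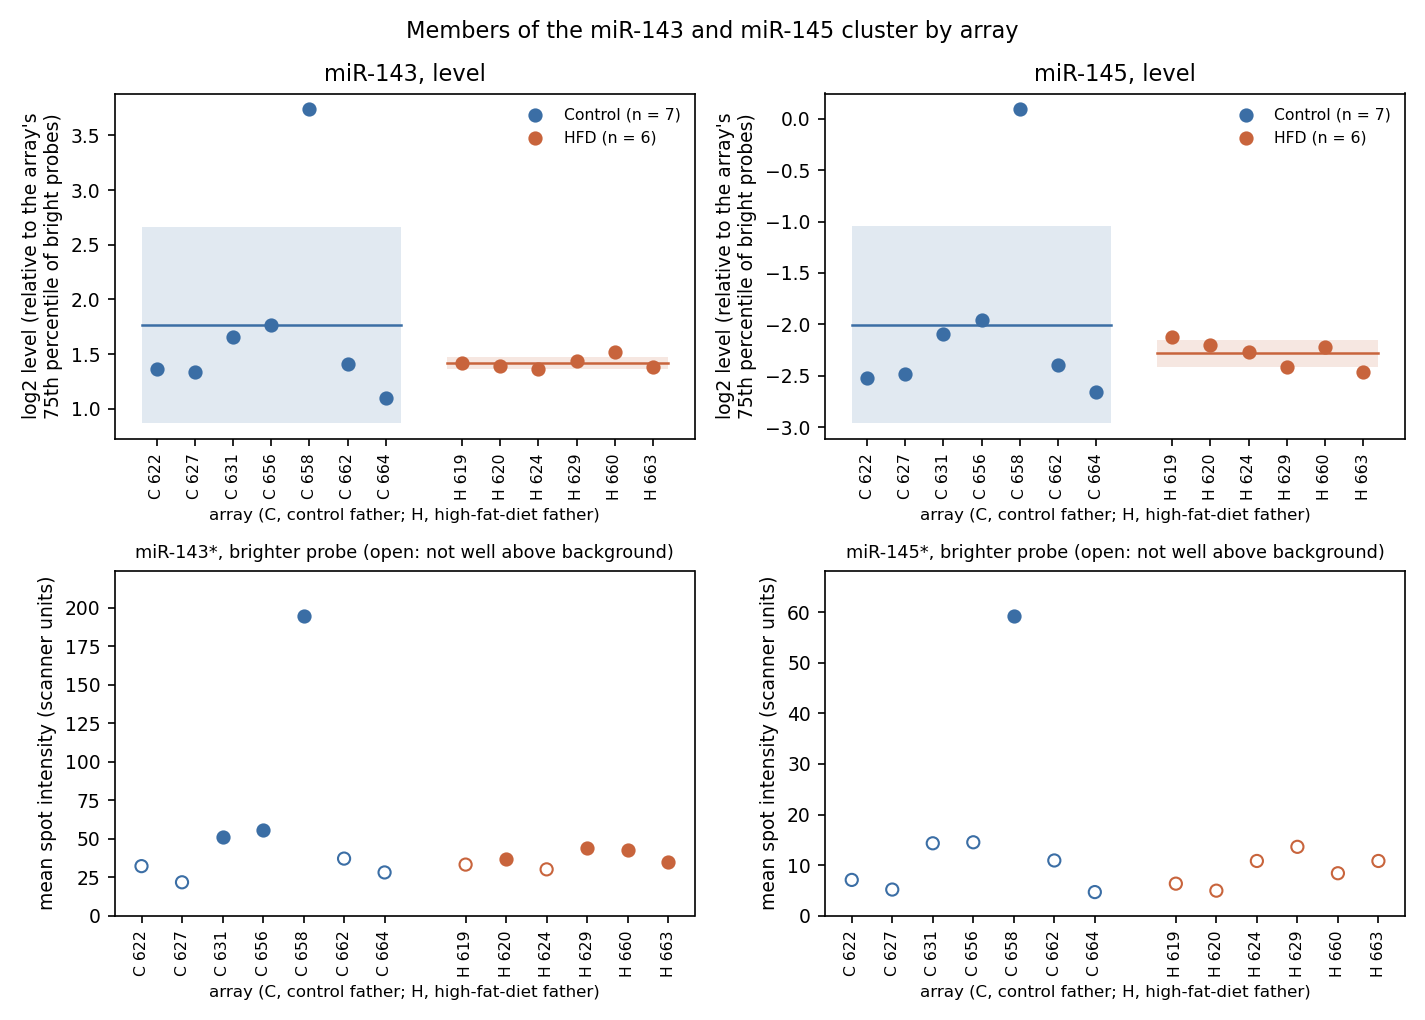
Each point is 1 array; the upper panels give log2 levels of miR-143 and miR-145, with a line at each group's mean and a band of ± 1 SD, and the lower panels give the mean spot intensity of the brighter probe of miR-143* and miR-145* in scanner units, open where the probe was not well above background. Control 658 is the highest array in all 4 panels, at 3.74, 0.093, 195 and 59.4, and the other arrays of both groups overlap.

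The first comparison asked whether the father's high-fat diet changed the cluster in the daughters' fat. No member changed by limma's test with Benjamini-Hochberg adjustment: 0 of the 3 tested members passed at an adjusted p of 0.05. The background was the same, 0 of 176 tested miRNAs (percent called 0), with 2 miRNAs (1.14%) at an unadjusted p under 0.05. Neither of these was a member. No tested miRNA, member or not, had groups that did not overlap (0 of 176, 0%).

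For miR-143 the Control mean was 1.77 ± 0.90 (SD, n = 7) and the HFD mean 1.42 ± 0.057 (SD, n = 6). The difference, HFD minus Control, was -0.35 ± 0.34 (limma SE), a fold of 0.783 with a 95% interval from 0.467 to 1.31 and an adjusted p of 0.965 by limma. The HFD animals were below the Control mean in 6 of 6 and below the Control median in 3 of 6. Without Control 658 the Control mean was 1.44 ± 0.24 (SD, n = 6), and the difference was -0.023 ± 0.097, a fold of 0.984 with an interval from 0.85 to 1.14 (limma adjusted p = 0.98). The estimate thus lost nearly all of its size when this array was left out, and its interval became narrower. Control 658 was singled out for these same levels, so leaving it out could only raise the difference, HFD minus Control.

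For miR-145 the Control mean was -2 ± 0.96 (SD, n = 7) and the HFD mean -2.28 ± 0.13 (SD, n = 6). The difference was -0.28 ± 0.37, a fold of 0.823 with a 95% interval from 0.473 to 1.43 (limma adjusted p = 0.976). Leaving out Control 658 turned its direction: the Control mean was then -2.35 ± 0.27 (SD, n = 6), and the difference was 0.069 ± 0.12, a fold of 1.05 with an interval from 0.88 to 1.25 (limma adjusted p = 0.98). The intervals over these 12 arrays still allow a level in HFD of 0.85- to 1.14-fold that of Control for miR-143 and of 0.88- to 1.25-fold for miR-145. They are descriptive, because Control 658 was left out for its levels of these same miRNAs.

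For miR-143* the means were -5.45 ± 0.42 (SD, n = 7) and -5.65 ± 0.037 (SD, n = 6), both pulled together by the 8 arrays at the floor. The difference was -0.20 ± 0.16 (limma adjusted p = 0.965) and -0.044 ± 0.045 without Control 658 (limma adjusted p = 0.974). The floor compresses these values, so the differences of miR-143* are smaller than those of intensity.

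**Figure D2:**
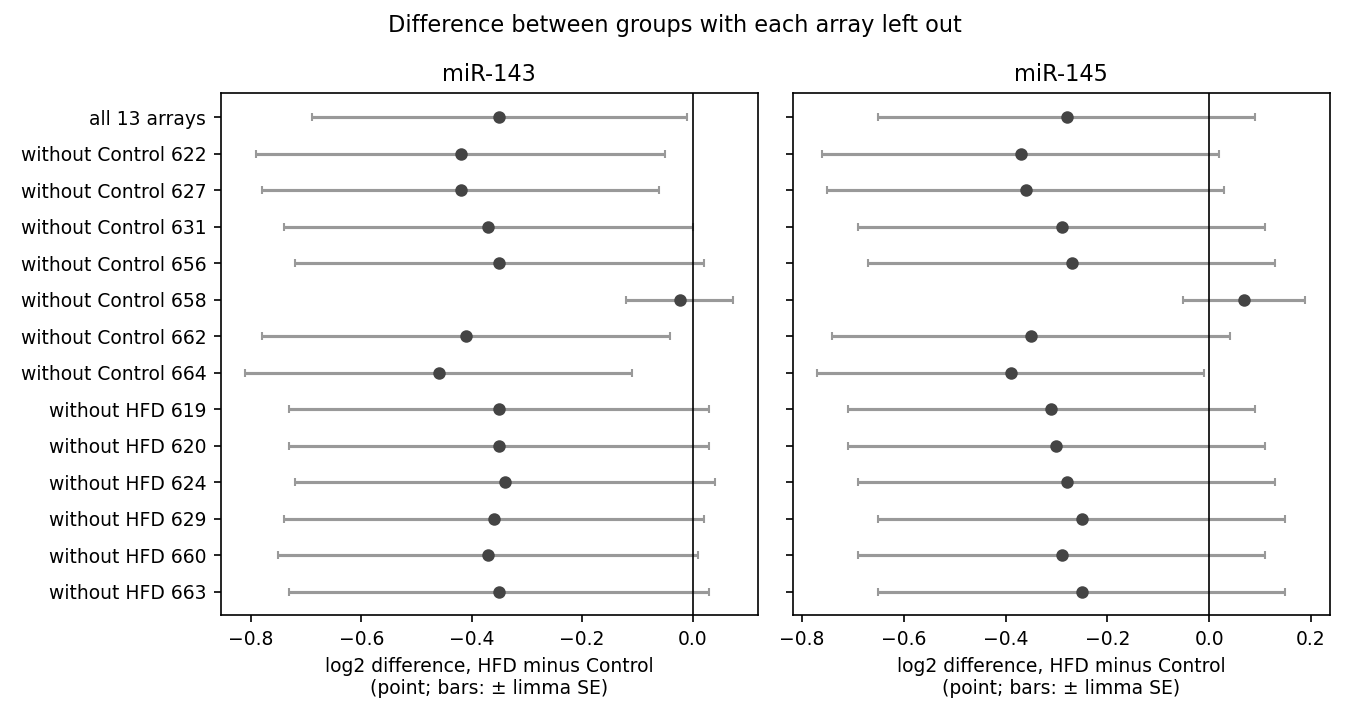
The horizontal axis gives the log2 difference, HFD minus Control, of miR-143 (left) and miR-145 (right); points are limma estimates and bars ± 1 SE, for all 13 arrays and with each array left out in turn. The estimate without Control 658 is -0.023 for miR-143 and 0.069 for miR-145, and the other 12 estimates of each lie on the negative side.

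The 2 probes of each abundant strand gave the same picture. On all 13 arrays the probes of miR-143 differed by -0.36 and -0.35 between HFD and Control, and those of miR-145 by -0.28 and -0.29. Without Control 658 the probe differences were -0.037 and -0.010 for miR-143, and 0.077 and 0.058 for miR-145. The spots of 1 probe on 1 array had a median coefficient of variation of 3.51% and 1.87% for the probes of miR-143 and of 2.97% and 3.22% for those of miR-145. This variation covers spots within 1 hybridisation and not the preparation, labelling or hybridisation of a sample.

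The arrays lay on 2 slides, with 4 Control and 4 HFD arrays on slide 1 and 3 Control and 2 HFD arrays on slide 2, where Control 658 was. On slide 1, miR-143 was at 1.53 ± 0.22 (SD, n = 4) in Control and 1.42 ± 0.071 (SD, n = 4) in HFD, a difference of -0.11. On slide 2 the means were 2.08 ± 1.45 (SD, n = 3) and 1.40 ± 0.02 (SD, n = 2), a difference of -0.68. For miR-145 the differences were -0.08 on slide 1 and -0.51 on slide 2, and for miR-143* they were -0.088 and -0.34. With slide as a block the differences were -0.32 (miR-143), -0.24 (miR-145) and -0.18 (miR-143*). The difference between slides was itself tested: the interaction was -0.57 for miR-143, -0.43 for miR-145 and -0.25 for miR-143* (limma adjusted p = 0.728, 0.773 and 0.728), and 0 of 3 members passed. Among all tested miRNAs 1 of 176 (0.568%) passed, and 34 (19.3%) had an unadjusted p under 0.05, 0 of them members. Without Control 658 the within-slide-2 differences were 0.15, 0.37 and 0.045 for miR-143, miR-145 and miR-143*, all positive, with 2 arrays per group, and both of the Control arrays were among the 3 of high miR-133b. The miR-145 value there had an unadjusted limma p of 0.0498 and an adjusted p of 0.258.

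Animal numbers fell into a lower range (619 to 631) and an upper range (656 to 664), which may be batches of animals, though no label says so. In the lower range, with 3 Control and 4 HFD arrays, the difference was -0.053 for miR-143 and 0.11 for miR-145. In the upper range, with 4 Control arrays that include 658 and 2 HFD arrays, it was -0.56 for miR-143 and -0.61 for miR-145. Leaving out Control 658, the upper range gave 0.023 for miR-143 and -0.00076 for miR-145. None of these within-range differences passed the limma test. Without the 3 arrays of high miR-133b, the differences were -0.56 for miR-143 and -0.46 for miR-145 (limma adjusted p = 0.659 and 0.685), larger than over all 13 arrays, with Control 658 then 1 of 5 controls.

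The second question was how far the cluster rose on Control 658 and whether its members rose in step. miR-143 was 5.08-fold above the median of the other 12 arrays and miR-145 was 5.37-fold above it. These were the third and the second largest rises among the 176 tested miRNAs on that array, behind miR-133b at 7.15-fold. Probe by probe, the rise was 4.91- and 5.17-fold for miR-143 and 5.46- and 5.30-fold for miR-145. In the total gene signal, the intensity per miRNA that the extraction software reports, miR-143 read 34500 on Control 658 and 5010 to 9670 elsewhere. miR-145 read 2790 there and 357 to 738 elsewhere, and miR-143* read 140 there and 17.5 to 35 on the 11 other arrays that list it as detected. All 4 strands of both hairpins were thus at their highest on the same array, the abundant strands by about the same factor.

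The rise on Control 658 is larger than anything else the members did. Over 13 arrays the SD of miR-143 was 0.66 and that of miR-145 was 0.70, ranks 10 and 8 of 176, where the median miRNA had an SD of 0.15. Over the other 12 arrays they were 0.17 and 0.21, ranks 66 and 39, against a median of 0.14. The fold between the highest and the lowest array fell from 6.25 to 1.59 for miR-143 and from 6.73 to 1.62 for miR-145. Among those 12, the Control SD of miR-143 was 0.24 (n = 6) and the HFD SD 0.057 (n = 6), and for miR-145 they were 0.27 and 0.13. The difference in spread was not tested.

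Other miRNAs moved on Control 658 as well, and the cell type lists show which. miR-221 and miR-222, a pair described in proliferating smooth muscle and as restraining adipocyte differentiation, were 3.94- and 3.47-fold above the median of the other arrays, with miR-222 at the floor on 8 arrays. miR-199a-5p and miR-214, which share a transcript in mesenchymal cells, were 2.57- and 1.76-fold above it. Below it were miR-196a, a HOX-cluster miRNA that differs between fat depots, at 0.16-fold, miR-196b at 0.267-fold, miR-196c at 0.397-fold, miR-338 at 0.251-fold and miR-146b at 0.498-fold. The mean level of the 7 fibroblast and mesenchyme markers was highest on Control 658 (-1.43, others -1.79 to -1.50), and so was that of the 6 markers of proliferating smooth muscle (-0.13, others -0.91 to -0.66). In the fibroblast list miR-199a-5p, miR-214 and miR-199a-3p were above the median of the others, at 2.57-, 1.76- and 1.53-fold, while miR-152 (0.945-fold), miR-22 (0.849-fold), miR-140 (0.787-fold) and miR-140* (0.777-fold) were below it. In the proliferating list the high mean came with miR-221, miR-222 and miR-21 (1.47-fold), while miR-24 (1.13-fold), miR-26a (1.03-fold) and miR-146a (0.845-fold) were nearer to the others. The mean of the 7 fat markers was the lowest there (-1.54, others -1.28 to -0.80), with miR-196a by far the lowest member against the others (0.16-fold) and the remaining 6 between 0.776-fold (miR-103) and 1.18-fold (miR-193). The lowest of 13 there were also the means of 5 white blood cell markers (-2.26, others -2.21 to -1.46) and 2 epithelial markers (-3.92, others -3.83 to -3.14). The 2 endothelial markers, miR-126 and miR-126*, averaged 0.051 there, within the range of the others (-0.0022 to 0.38). The 3 striated muscle markers averaged -2.94 there, above the median of the others (-4.50) and inside their range (-5.06 to 0.50). That range includes the 3 arrays of high miR-133b. Against the median of the others, miR-133b was at 7.15-fold on Control 658, miR-1 at 2.65-fold and miR-499 at 1.21-fold. The part of other cell types in the levels of the cluster on Control 658 was not tested.

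**Figure D3:**
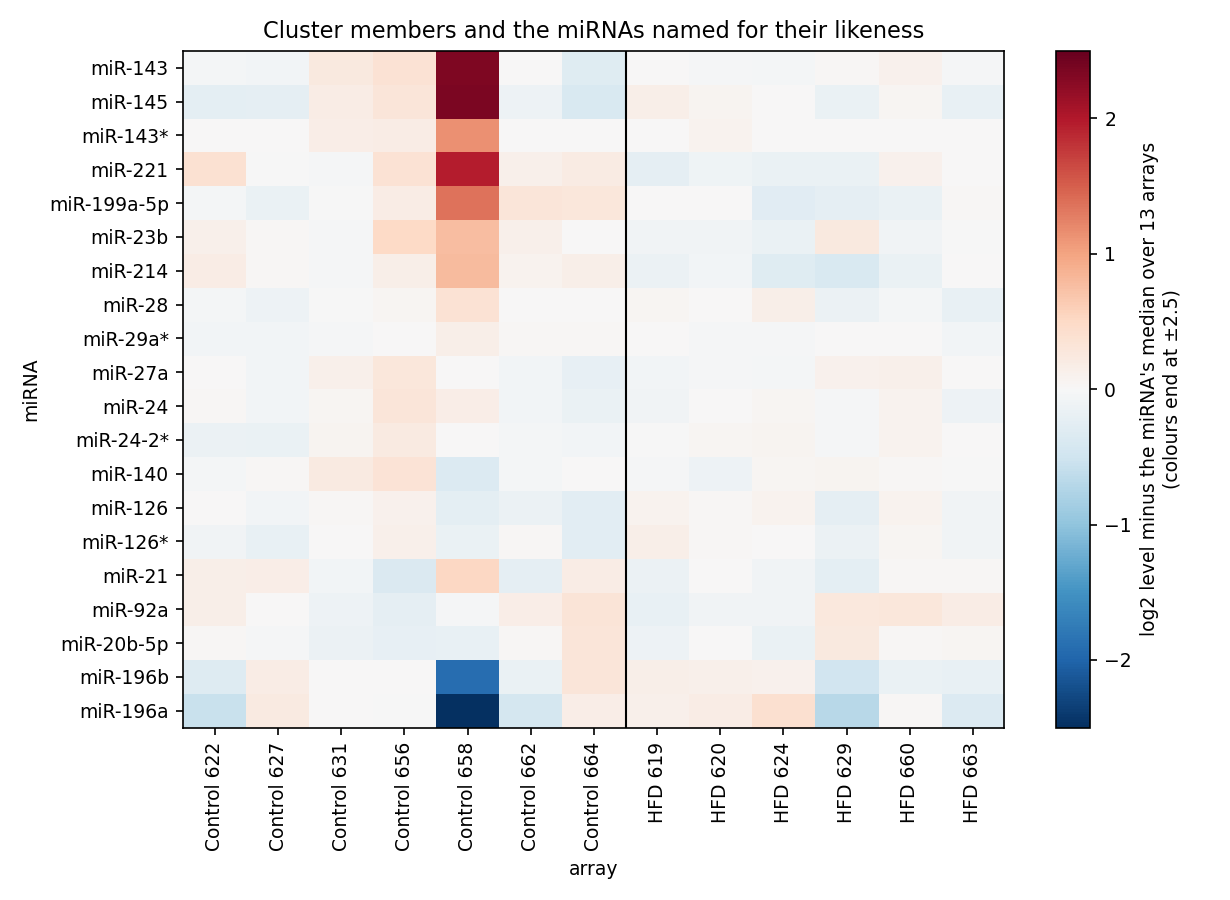
Each row is a miRNA and each column an array; colour gives the log2 level minus the miRNA's median over 13 arrays, with Control arrays left of the line and HFD arrays right of it. The column of Control 658 is deep red for miR-143, miR-145 and miR-221 and deep blue for miR-196a and miR-196b, and the remaining columns are pale in the rows of the cluster.

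The third question was whether miR-143 and miR-145, which can come from the same transcript, varied together from animal to animal. They did over 13 arrays: Pearson's r was 0.99 (permutation p = 5e-05, adjusted over 3 pairs 5e-05) and Spearman's rho 0.85 (permutation p = 0.00063, adjusted 0.000945). Without the 2 arrays farthest from the median of miR-143, Control 658 and 656, r was 0.77 (n = 11, permutation p = 0.00326). Because Control 658 lies apart from the rest, the relation was also computed over the other 12 arrays, where r was 0.85 (permutation p = 0.00026) and rho 0.80 (permutation p = 0.00248). Without the 2 next farthest arrays as well, Control 656 and 664, r was 0.64 (n = 10, permutation p = 0.0276).

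The groups were then taken apart. Within the 6 Control arrays other than 658, r was 0.98 (two-sided exact permutation p = 0.00278). Within the 6 HFD arrays, r was 0.17 and rho 0.26 (two-sided exact permutation p = 0.772 and 0.658), over a range of miR-143 of only 1.36 to 1.52. The difference between these correlations was not tested. On slide 1, r was 0.92 (n = 8, exact permutation p = 0.00174), and slide 2 holds 5 arrays, too few for a value. In the lower number range, r was 0.61 (n = 7, exact permutation p = 0.0931). In the upper range, which holds Control 658, r was 1.0 (n = 6, exact permutation p = 0.00139), and the 5 arrays left without it are too few for a value.

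Put as a ratio, the log2 of miR-143 over miR-145 moved less over all 13 arrays than either strand did. Relative to its median it ran from -0.22 (HFD 619) to 0.13 (Control 622), a 1.27-fold range over all 13 arrays, while miR-143 alone ranged over 6.25-fold and miR-145 over 6.73-fold. With Control 658 left out, the ratio still ranged over 1.27-fold and the strands over 1.59- and 1.62-fold, so most of that contrast rests on this array. Control 658 was at -0.10, inside that range. The ratio was 0.019 ± 0.073 (SD, n = 7) in Control and -0.052 ± 0.13 (SD, n = 6) in HFD, a difference of -0.072 that is smaller than the HFD spread, or -0.092 without Control 658. Within HFD the SD of the ratio, 0.13, stood against 0.057 for miR-143 and 0.13 for miR-145, so there the ratio was no steadier than the strands. A shared scaling factor of the array cancels in this ratio.

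**Figure D4:**
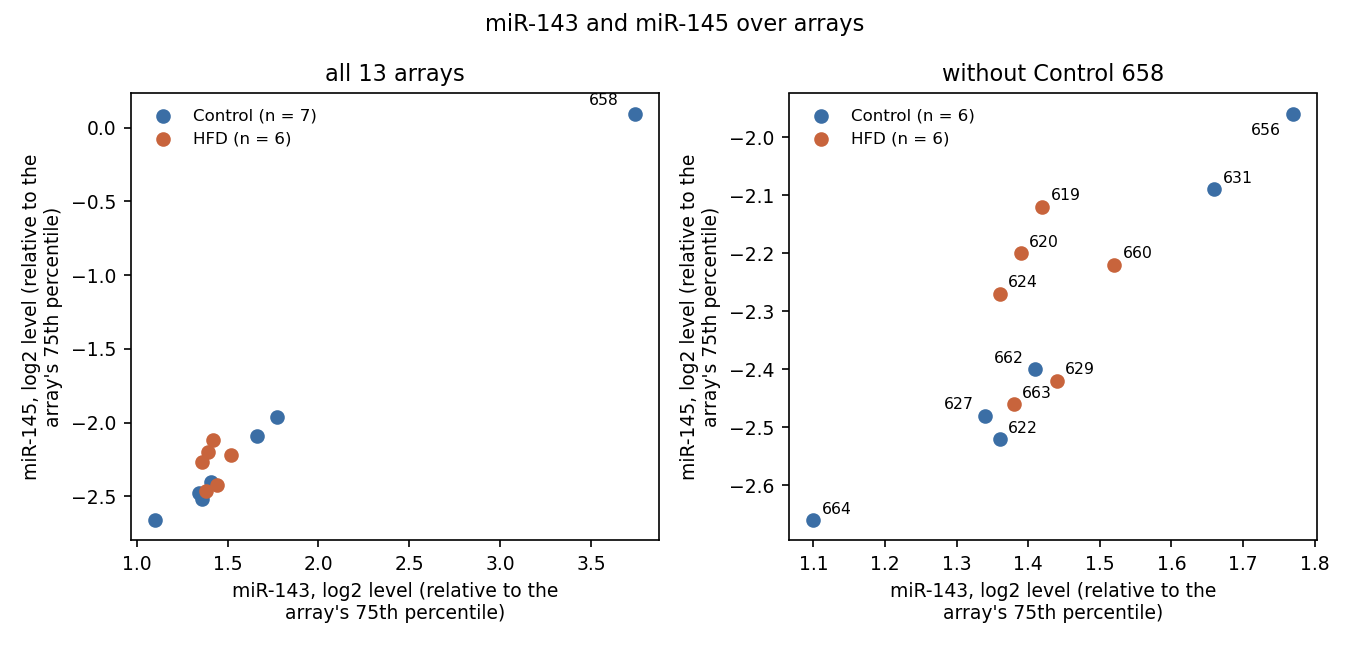
Each point is 1 array, with the log2 level of miR-143 on the horizontal axis and that of miR-145 on the vertical axis, for all 13 arrays (left) and for the 12 without Control 658 (right), with animal numbers beside the points. Control 658 lies alone at the upper right of the left panel, and in the right panel the Control arrays run from 664 at the lower left to 656 at the upper right (r = 0.85 over the 12 arrays).

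The passenger strand of miR-143 followed both abundant strands in total gene signal, though mostly near background. In total gene signal, over the 12 arrays that list miR-143* as detected, the r of miR-143* was 0.99 with miR-143 and 0.99 with miR-145 (permutation p = 1e-05 for both, the smallest that the resamples can give). Without Control 658 it was 0.91 with miR-143 (n = 11, permutation p = 0.00013) and 0.92 with miR-145 (permutation p = 4e-05). Leaving out the 2 next farthest arrays gave 0.82 (n = 9, permutation p = 0.0115) and 0.88 (n = 9, permutation p = 0.00121). The total gene signals were scaled between arrays before these correlations were computed. The scaling and background that the strands share on an array can still add to them.

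The miRNAs whose pattern was most like the cluster's were ranked by Pearson's r among 143 other miRNAs detected on all 13 arrays, as a description with no test. Over 13 arrays, miR-143 was followed by miR-145 (0.99), miR-221 (0.92), miR-199a-5p (0.87), miR-23b (0.81) and miR-214 (0.78), and it was least like miR-196b (-0.92) and miR-196a (-0.89). For miR-145 the order was miR-143 (0.99), miR-221 (0.89), miR-199a-5p (0.85), miR-28 (0.83) and miR-29a* (0.77). The median r over the 143 miRNAs was -0.094 for miR-143 and -0.045 for miR-145. These rankings rest largely on a single array. Without Control 658 the r with miR-143 became 0.12 for miR-221, -0.059 for miR-199a-5p, -0.036 for miR-214 and -0.093 for miR-196a. It was 0.48 for miR-23b and stayed at 0.85 for miR-145.

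Over the other 12 arrays a different set came first. For miR-143 these were miR-27a (0.94), miR-145 (0.85), miR-24 (0.82), miR-140 (0.75) and miR-24-2* (0.71), of which miR-24, miR-27a and miR-24-2* belong to miR-23, miR-27 and miR-24 clusters. For miR-145 they were the endothelial miRNA miR-126* (0.88), miR-143 (0.85), miR-24-2* (0.82), miR-126 (0.80) and miR-24 (0.72). At the other end stood miR-21 (-0.67) and miR-20b-5p (-0.65) for miR-143, and miR-20b-5p (-0.78) and miR-92a (-0.77) for miR-145. miR-145 was first in likeness to miR-143 over 13 arrays and the second over 12, and the same held for miR-143 in likeness to miR-145. The arrays share their scaling and background, which can add to any of these correlations.

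**Figure D5:**
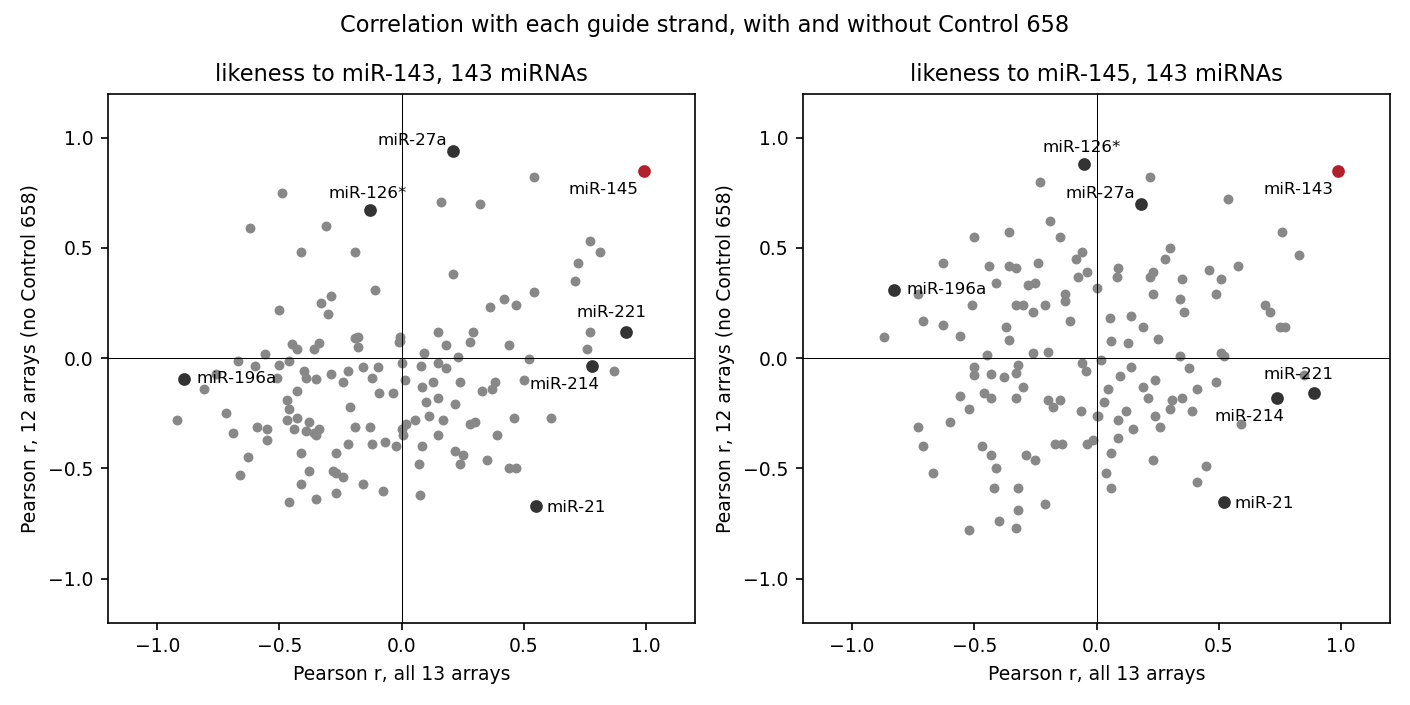
Each point is 1 of 143 miRNAs, with its Pearson r with miR-143 (left) or miR-145 (right) over all 13 arrays on the horizontal axis and over the 12 arrays without Control 658 on the vertical axis. The partner strand (red) is high on both axes, miR-221 and miR-214 are high only over 13 arrays, and miR-27a is at 0.94 with miR-143 only over 12.

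The cluster belongs to several lists of miRNAs with related roles, and its neighbours there did not pass the test either. Among miRNAs described as promoting adipocyte differentiation, 17 were tested, 0 passed in either direction, and the median difference was 0.011, where that of all 176 tested miRNAs was 0.0028. The 3 with the lowest p there, apart from miR-143, were miR-378 (0.16 ± 0.11), a miRNA hosted by a metabolic coactivator gene, miR-26b (-0.050 ± 0.049) and miR-21 (-0.12 ± 0.12). Among those described as restraining it, 10 were tested, 0 passed and the median was -0.05, or -0.031 without Control 658. Beside miR-145, these included miR-221 (-0.52 ± 0.27), miR-27b (-0.19 ± 0.14) and miR-222 (-0.33 ± 0.25), all with a limma adjusted p of 0.965. Without Control 658 the differences of these 3 were -0.26, -0.11 and -0.091.

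The smooth muscle lists gave the same count. Of the contractile list, 5 miRNAs were tested and 0 passed, and all 5 values were negative, with a median of -0.28 that became -0.044 without Control 658. Of these, 3 were the cluster members themselves. The others were miR-133b (-0.54 ± 1.67) and miR-1 (-0.18 ± 1.67), which striated muscle carries too and whose SE reflects the 3 arrays of high muscle miRNAs. Of the proliferating list, 6 were tested and 0 passed, and the median was -0.087, or -0.044 without Control 658. Of the endothelial pair, 0 of 2 passed, with differences of 0.082 ± 0.075 for miR-126 and 0.086 ± 0.068 for miR-126*. Of 7 fat markers 0 passed, with a median of 0.14 (0.13 without Control 658). Of 7 fibroblast markers 0 passed, with a median of -0.092 (-0.11 without Control 658). The skeletal muscle, red blood cell, white blood cell, epithelial, neural and liver lists had 0 calls as well. Over 3, 3, 5, 2, 2 and 3 tested miRNAs, their medians were -0.18, 0.55, -0.097, -0.014, -0.2 and 0.097. Without Control 658 these medians were, in the same order, -0.24, 0.66, -0.13, -0.081, -0.4 and 0.069.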

How the data were processed

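Total RNA from fat of 13 rats (7 Control, 6 HFD) was labelled with Cy3 and hybridised to 1-colour arrays, per the labels' protocols. Per the file headers, the authors used Feature Extraction 10.7.3.1 with an rn4 grid, which gave background-subtracted spot intensity on a linear scale, not scaled between arrays. The authors' deposited value table holds log2 of the total gene signal, blank where not detected: of 2569 values, 25 differed from the files by over 0.001. RMA and Partek appear in the submitters' processing notes with no stated use.

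Unflagged spots were averaged per probe, scaled to the 75th percentile of 260 probes on that array, floored at 0.0197 (the median over arrays of percentile 1 of spots well above background), taken to log2, and averaged over a miRNA's probes. limma 3.58.1 in R 4.3.3 compared HFD with Control over 176 miRNAs, with Benjamini-Hochberg adjustment at 0.05. The same fit was tried on simulated data with independent normal noise per miRNA, which had no floor, slide effect or outlying array. Permutation tests were two-sided, exact under 9 arrays and otherwise with 100000 resamples. Alternatives covered scaling, background, probe summary, floor, filter, blocks, weights and left-out arrays. For normexp (offset 50) the median spot signal was used. The number of arrays limits precision. Named miRNAs were the members, the 5 most and 2 least alike miRNAs per abundant strand, and the 3 lowest p per adipocyte and smooth muscle list, with markers and other miRNAs that bear on Control 658 named after their values were seen. The members and lists were chosen with earlier results of these data known.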

Additional observations from a re-analysis of the deposited data

Results flagged for a closer look

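In the Control group, Control 658 lay far above its nearest neighbour for all 3 tested members. Its level was 3.74 for miR-143, 0.093 for miR-145 and -4.51 for miR-143*, with a gap to the next array of 0.746, 0.745 and 0.833 of the group's range (Dixon's critical value for 7 arrays, 0.568). In the HFD group, HFD 620 was the highest for miR-143*, at -5.57, with a gap of 0.996 of the range (critical value for 6 arrays, 0.625), in a group where the other arrays were at -5.67 or -5.66, next to the floor. The Control median of miR-143* was at the floor too, -5.67, so neither of its gaps can be read against the critical value. Such gaps were found for 22 of 176 tested miRNAs (12.5%) in the Control group, of which 10 were high on Control 658, and for 15 (8.52%) in the HFD group. Chance flags about 1 in 20 groups where values are normal and untied, which values at the floor are not. The cause of the gap on Control 658 was not tested.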

How the results depend on the processing

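No miRNA passed an adjusted p of 0.05 by limma in any of 39 alternatives (lowest adjusted p 0.0523, with 1 to 34 miRNAs at an unadjusted p under 0.05). Leaving out each array in turn, the difference ran from -0.46 to -0.023 for miR-143, from -0.24 to -0.044 for miR-143* and from -0.39 to 0.069 for miR-145, and the correlation of miR-143 with miR-145 from 0.85 to 0.99. Control 658 gave the end of each range nearest to or past 0, and the lower end of the correlation. The value 0.069 for miR-145 was the same with slide as a block. Within slide 2 and without Control 658, the differences were 0.15 (miR-143), 0.045 (miR-143*) and 0.37 (miR-145), and the slide interactions without that array were 0.26, 0.13 and 0.45. Within the upper number range without it, miR-143 was at 0.023. Settings added after seeing the data were the number ranges taken separately and those that combine leaving out Control 658 with another choice. Other signs that turned were miR-145 with array weights (0.0024), which weight down arrays that vary more, miR-145 within the lower number range (0.11), and the miR-143* slide interaction with normexp (0.11). The correlation was weaker within the lower number range (0.61). The cause of these turns was not tested beyond the left-out array. Over the other planned settings that kept both slides, the differences ran from -0.56 to -0.11 for miR-143 and -0.46 to 0.0024 for miR-145. For miR-143* they ran from -0.52 to -0.022. The values -0.56 and -0.46 came from leaving out the arrays of high miR-133b, and -0.11 and 0.0024 from array weights. With these settings aside, miR-143 ran from -0.4 (total gene signal) to -0.25 (RMA-like processing). miR-145 then ran from -0.32 (total gene signal) to -0.2 (number range as a block). miR-145*, measured on 1 array, was given no test under any setting, and the filter of detection on all 13 arrays leaves no value for miR-143*. No paired analysis was possible because the groups share no replicate number.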
